A study of Mus musculus with 8 samples.

Results

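Müller glia (MG) are the radial glial cells that span the neural retina, and the miRNAs described here are those whose level in cultured MG was set against their change as MG mature in the eye. The miRNAs were chosen by 1 rule, a raw count more than 2 SD over the average of the sample's 8 negative control probes in at least 1 of the 4 MG samples, and 228 of the 566 mouse miRNA features on the panel met it. Each miRNA was measured in adult MG (40 retinas pooled), in MG of postnatal day (P) 11/12 (32 retinas) and in MG from P11 retinas after 8 and 14 days in vitro (DIV). The sources differ on the cultures: the sample descriptions give 20 retinas in an experiment split over both times, and the protocols give 20 mice and 2 independent cultures that were pooled. All mice carried Rlbp-CreER, a tamoxifen-inducible Cre driven by a promoter active in MG, and a floxed-stop tdTomato reporter. They received tamoxifen just before P11 or as adults, and the fresh MG were collected by FACS as tdTomato+ cells. The cultured cells grew in Neurobasal medium with N-2, fetal bovine serum and EGF, were passaged before the 8 DIV collection, and were not sorted. The tdTomato- fraction of the adult and P11 retinas, called neurons, is used beside the 4 MG samples where stated. The P11 pool is not the source of the cultures, and it differs from them in sorting as well as in culture.

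There was 1 pooled sample per condition, so no test was possible and no p-value is given. A size rule took its place: a miRNA counted as higher or lower where its level differed at least 2-fold. Levels are raw counts minus the mean negative control, scaled so that the mouse miRNA counts of each sample sum to 1000000, and are given as CPM. Raw mouse miRNA counts summed to between 391133 and 695390 per MG sample, and 149 to 186 miRNAs per sample lay above background, a limit of 48.7 to 119.9 CPM. A sample below its limit was set to it, and the ratio then is a bound. Where the level above background lay below the other sample's limit, the direction was open and the miRNA counted as not measured. A bound can thus point only toward the sample above background. Ratio intervals divide opposite exact 95% Poisson limits, are wider than 95%, and cover counting error of the single assays only, not the spread between pools. In such bulk RNA, fewer cells of a type and less miRNA per cell cannot be told apart. Each miRNA has its own probe, so an order of different miRNAs by CPM is one of counts and not of abundance in the cell.

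Several facts about the samples touch every value below. The culture times in the age labels of the cultured samples are the opposite of those in their titles and descriptions; the titles, which the column headers of the raw table share, were followed. The 3 comparisons over P11 MG share that sample, so a P11 value that is low or high by itself moves all 3 the same way. For 16 of the 228 miRNAs, the authors' normalized values of both cultured samples are those that the raw counts give under another of the 16 names. The 16 are miR-15a, miR-17/106a, miR-20a/b, miR-23a, miR-29a, miR-30d, miR-99b, miR-124, miR-130a, miR-148a, miR-151-5p, miR-191, miR-210, miR-342-3p, miR-350 and miR-1937a/b, and 10 of them change class with the normalized values. Which of the 2 tables carries the right names was not settled, so the raw counts are given throughout with the other value beside the miRNAs concerned. The share of higher against lower calls also depended on the scaling. With equal totals the median log2 ratio of adult over P11 MG was -0.64, and scaling on housekeeping mRNAs, positive controls, ligation controls, the median ratio or totals without miR-204 moved that comparison by 0.99, 0.89, 1.17, 0.71 and 0.31.

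miRNAs are short RNAs that, loaded on an Argonaute protein, lower the output of mRNAs that pair with their seed, bases 2 to 8. miRNAs with the same seed share many predicted targets, and miRNAs that lie close together are often cut from 1 primary transcript. Retinal glia leave the cell cycle in the first postnatal weeks and lose the progenitor features that they share with late retinal progenitors. Dissociated cultures are a common model of MG, and setting culture beside maturation asks whether the miRNAs of cultured MG moved toward the adult pattern or away from it.

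Mature sequences below are from RefSeq (GRCm38.p6), 173 of the 228 miRNAs were matched, and capitals mark the seed. For 118 of them the older name on the panel carries no arm, and the arm that name has denoted was taken. The first set holds the 4 miRNAs that were higher in adult MG and in both cultures.
miR-29a-3p: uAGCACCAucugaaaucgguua
miR-29b-3p: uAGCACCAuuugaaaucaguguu
miR-29c-3p: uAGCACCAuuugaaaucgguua
miR-23a-3p: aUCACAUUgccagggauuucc

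The second set shows miRNAs that were lower in adult MG. miR-9 was lower in both cultures. miR-322, miR-15b and miR-16 share a seed but were lower at both culture times, at 14 DIV only and at neither. miR-17 and miR-20a share another seed and were read by joint probes with miR-106a and miR-20b. By the raw counts both probes were lower at 14 DIV only. Both names are exchanged, and by the normalized values miR-20a/b was lower at both times (log2 -1.65 and -1.01).
miR-9-5p: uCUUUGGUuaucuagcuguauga
miR-322-5p: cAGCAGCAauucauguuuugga
miR-15b-5p: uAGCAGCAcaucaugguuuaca
miR-16-5p: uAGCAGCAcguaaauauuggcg
miR-17-5p: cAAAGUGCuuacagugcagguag
miR-20a-5p: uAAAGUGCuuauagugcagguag

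Calls in the third set are those with equal totals. The set holds miR-21a and miR-146a, raised in culture but lower in adult MG, miR-22, raised in culture only, and miR-181a, lowered in culture only. Also in it are the miR-99/100 family, whose members went opposite ways in culture, and miR-204, highest in adult MG and lowest in culture.
miR-21a-5p: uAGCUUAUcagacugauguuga
miR-146a-5p: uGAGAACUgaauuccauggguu
miR-22-3p: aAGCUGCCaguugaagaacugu
miR-181a-5p: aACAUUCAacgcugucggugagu
miR-99a-5p: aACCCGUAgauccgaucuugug
miR-99b-5p: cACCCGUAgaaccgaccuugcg
miR-100-5p: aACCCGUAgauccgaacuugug
miR-204-5p: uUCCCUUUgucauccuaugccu

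As MG matured, far more miRNAs were lower than higher with equal totals. Of 156 miRNAs that could be compared, 11 were at least 2-fold higher in adult than in P11 MG (7.05%) and 54 lower (34.6%). Culture moved the balance the other way. With equal totals 44 of 183 were higher at 8 DIV than at P11 (24%) and 20 lower (10.9%), and at 14 DIV 51 of 182 were higher (28.0%) and 38 lower (20.9%). The median log2 ratio over all measured miRNAs was 0.17 at both culture times. The split depended on the scaling. In adult MG 44 were higher and 20 lower with housekeeping mRNAs, 40 and 22 with positive controls, 55 and 17 with ligation controls, 34 and 28 with the median ratio, and 21 and 39 with totals without miR-204. At 8 DIV 25 were higher and 41 lower with housekeeping mRNAs and 54 and 14 with positive controls, and at 14 DIV 27 were higher and 73 lower with housekeeping mRNAs. Near the 2-fold line of adult over P11 MG, 11 miRNAs lay between 2- and 2.2-fold and 17 between 1.8- and 2-fold.

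With equal totals the 11 miRNAs higher in adult MG were raised in culture more often than lowered, and scaling on housekeeping mRNAs turned this round. At 8 DIV 5 of the 11 were higher than at P11 (45.5%, against 24% over all measured miRNAs) and at 14 DIV 7 (63.6%, against 28.0%), and none was lower by 2-fold at either time. With housekeeping mRNAs 44 miRNAs were higher in adult MG, of which 8 were higher and 10 lower at 8 DIV and 8 higher and 17 lower at 14 DIV. Under the other 4 scalings more of them were higher than lower at both times, and between 1 and 7 were lower. Of the 54 miRNAs lower in adult MG, 14 were also lower at 8 DIV (25.9%), 32 were within 2-fold and 8 were higher. At 14 DIV 24 of the same 54 were lower (44.4%), 24 were within 2-fold and 6 were higher, against 20.9% lower over all measured miRNAs. No miRNA was higher at one culture time and lower at the other. With a call required at both times, 4 miRNAs were higher in adult MG and followed in culture, 14 were lower and followed, 4 were lower and reversed, 24 were higher in culture only and 5 lower in culture only. None was higher in adult MG and reversed with equal totals. A further 49 were measured in all 3 comparisons and called in none, and the other miRNAs were called at 1 culture time only, in maturation only, or could not be measured in all 3. These 6 classes are used below, and all depend on the shared P11 sample.

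**Figure D1:**
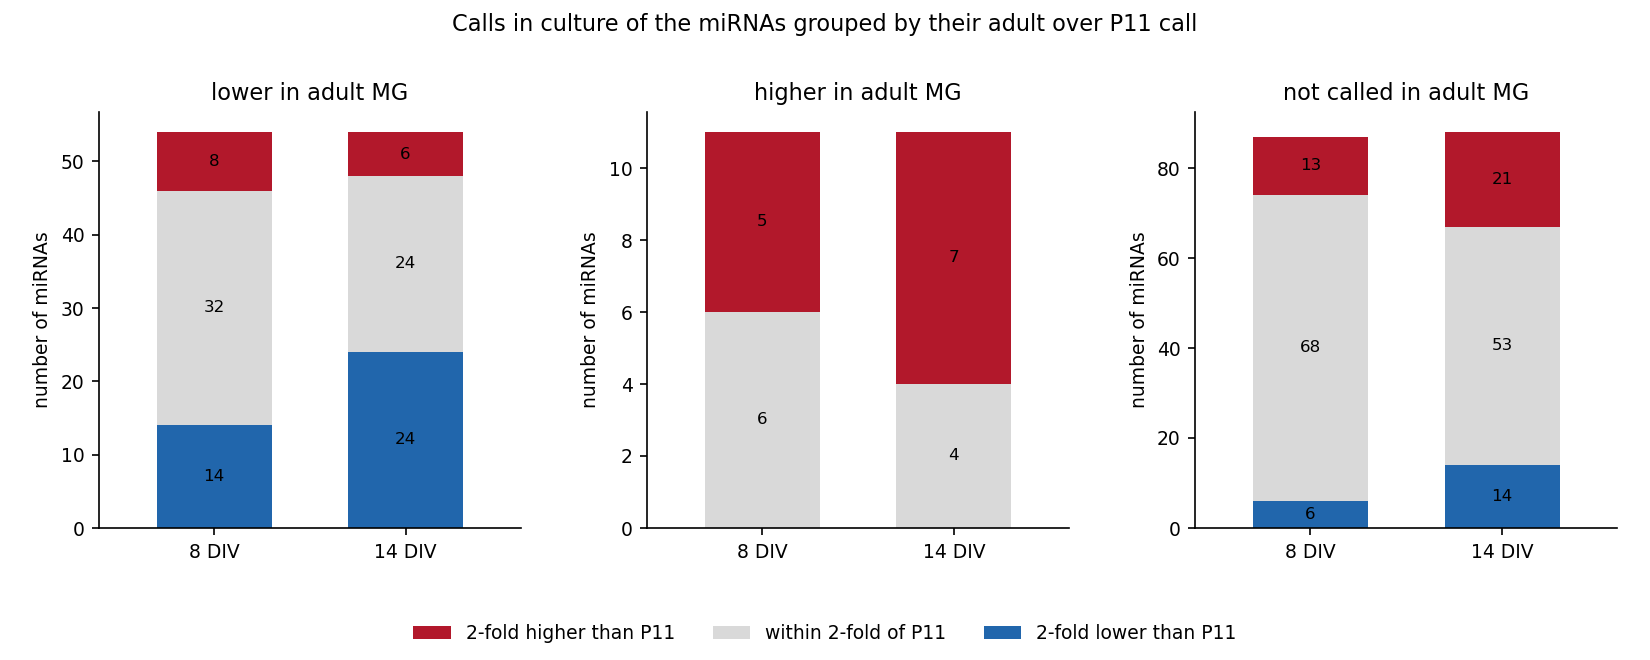
Number of miRNAs (vertical axis) by their call at 8 and 14 DIV relative to P11 MG, for the 54 miRNAs lower, the 11 higher and those within 2-fold in adult over P11 MG; blue is 2-fold lower, grey within 2-fold and red 2-fold higher. Of the 54 miRNAs lower in adult MG, 14 were lower at 8 DIV and 24 at 14 DIV, and with equal totals, as drawn, no miRNA higher in adult MG was lower in culture, against 10 and 17 at 8 and 14 DIV with housekeeping mRNAs.

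**Figure D2:**
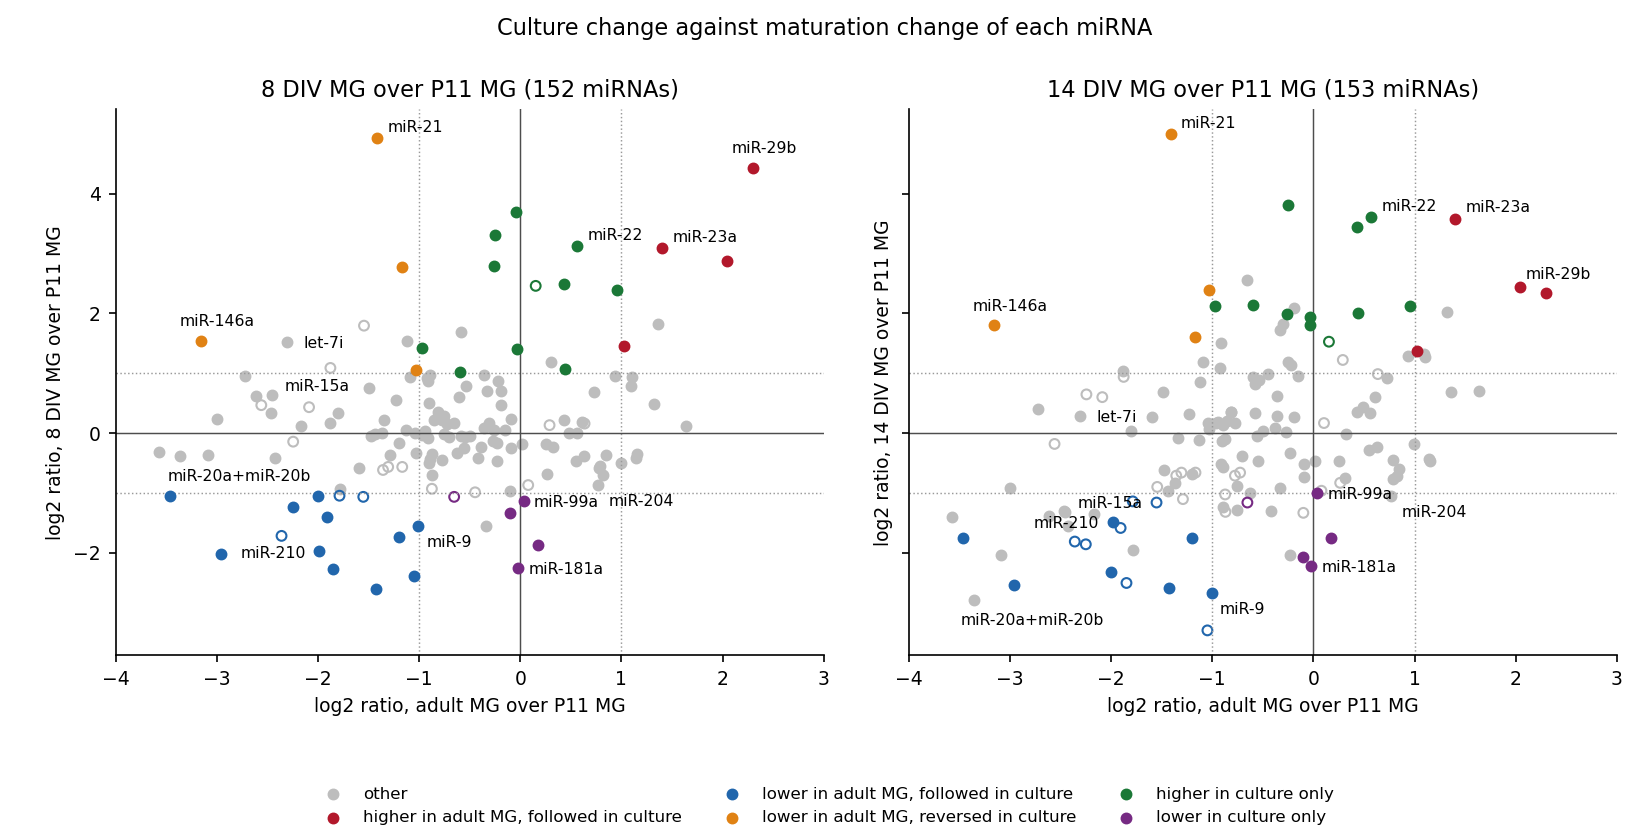
Log2 ratio of each miRNA in adult over P11 MG (horizontal axis) against its log2 ratio at 8 DIV (left) or 14 DIV (right) over P11 MG (vertical axis), 1 point per miRNA, coloured by class; open points are bounds and dotted lines mark 2-fold. miR-21 and miR-146a lie upper left, miR-29b and miR-23a upper right, and miR-20a/b lies at -0.39 at 8 DIV and at -2.79 at 14 DIV; both axes share the P11 sample, so they are not independent.

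All members of the miR-29 family were higher in adult MG and in both cultures, except that miR-29c missed the 2-fold line in both cultures with housekeeping mRNAs and miR-29a missed it there with the authors' normalized values. These miRNAs are best known for lowering collagens, other matrix proteins and DNA methyltransferases, and they rise as many tissues mature. miR-29a had 11130 CPM in adult MG, 2698 in P11 MG, 19690 at 8 DIV and 14690 at 14 DIV. P11 MG were lowest, and adult MG were 4.13-fold above them (interval 3.81 to 4.47). miR-29b had 2232 in adult MG, 453.6 in P11 MG, 9815 at 8 DIV and 2288 at 14 DIV, so that its 8 DIV level was the highest of the 4 and the 14 DIV level was close to the adult one. miR-29c had 2734, 1345, 3676 and 3499 in adult, P11, 8 DIV and 14 DIV MG, and its 2.03-fold difference between adult and P11 MG lay at the line (interval 1.79 to 2.31). The family summed to 16090 CPM in adult MG, 4497 in P11 MG, 33190 at 8 DIV and 20470 at 14 DIV, and with the normalized values of miR-29a 16920 and 7524 at 8 and 14 DIV. miR-29a is among the exchanged names: by the normalized values its log2 ratios over P11 MG were 0.35 at 8 DIV and -0.64 at 14 DIV, in place of 2.87 and 2.44, while miR-29b and miR-29c kept their class. The mature miR-29a lies at chr6:31062673-31062694 (minus strand), outside any other gene span of the RefSeq table. The 2 copies of miR-29b lie beside it, at chr6:31063025-31063047, and beside miR-29c on chromosome 1 (chr1:195037091-195037113 and chr1:195037600-195037621, plus strand, in the span of the lncRNA A330023F24Rik).

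miR-23a, the fourth of this class, had 4247 CPM in adult MG, 1609 in P11 MG, 13710 at 8 DIV and 19300 at 14 DIV. It lies at chr8:84208563-84208583 (plus strand), in a cluster with miR-27a and miR-24 that is known from vascular and muscle cells. In maturation the cluster did not move as 1 unit: miR-23a was 2.64-fold higher in adult MG, while miR-27a and miR-24 had log2 ratios of -0.26 and -0.25. In culture all 3 were higher, with log2 ratios over P11 MG of 3.09, 2.79 and 3.31 at 8 DIV and 3.58, 1.99 and 3.81 at 14 DIV. The normalized values of miR-23a, which is among the exchanged names, gave -0.05 and 0.05 instead. Among the other miRNAs higher in adult MG, miR-125b-5p, a miRNA of glia, had 139900 CPM in adult MG, 65260 in P11 MG, 124500 at 8 DIV and 157200 at 14 DIV, so only its 8 DIV ratio of 0.93 fell short of the line. miR-30a and miR-365 were likewise called at 14 DIV only, with log2 ratios of 1.31 and 2.02. miR-338-3p, abundant in oligodendrocytes and neurons, was called at 8 DIV (1.82) and not at 14 DIV (0.68).

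miR-9 had the highest counts of the miRNAs that were lower in adult MG and in both cultures. It is a neural progenitor and glial miRNA that lowers Hes1 and Tlx in the developing brain. It had 96290 CPM in adult MG, 193500 in P11 MG, 65910 at 8 DIV and 30470 at 14 DIV. P11 MG were highest and 14 DIV lowest, 6.35-fold below P11 MG (interval 6.19 to 6.51). The adult ratio of 2.01-fold lay at the line, and miR-9 left this class under each of the 5 other scalings, where its log2 ratio of adult over P11 MG was between -0.70 and 0.17. miR-9-5p has 3 copies in the mouse genome, at chr13:83738821-83738843, chr3:88215613-88215635 and chr7:79505279-79505301, all on the plus strand, the first within the span of the lncRNA C130071C03Rik and the second within that of the lncRNA Gm3764.

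The other miRNAs of this class had 3832 CPM or less in P11 MG. miR-210, the miRNA of the hypoxia response, had 967.9 in adult MG, 3832 in P11 MG, 973.5 at 8 DIV and 1375 at 14 DIV, but its name is among those exchanged and the normalized values placed it above P11 MG in culture (log2 ratios 2.36 and 1.94). miR-322, the mouse ortholog of miR-424 and a miR-15/16 relative, had 127.4 CPM in adult MG, 1406 in P11 MG, 677.9 at 8 DIV and 418.9 at 14 DIV. It fell most in adult MG, 11.0-fold (interval 7.97 to 15.8), and less in culture, 2.07- and 3.36-fold. miR-130b had 220.3, 880, 422.2 and 176.7 CPM in adult, P11, 8 DIV and 14 DIV MG. miR-181b/d had 120 CPM in adult MG, 432 in P11 MG and 89.1 at 8 DIV, and was below background at 14 DIV.

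Some miRNAs of this class mark other cells. miR-183, a sensory miRNA of photoreceptors, had 463.6 CPM in adult MG, 1066 in P11 MG, 319 at 8 DIV and 316.2 at 14 DIV, against 101200 and 47140 in the tdTomato- fraction of adult and P11 retina. miR-126-3p, the endothelial miRNA from the Egfl7 gene, had 249.8, 670.1, 110.3 and 110.9 in adult, P11, 8 DIV and 14 DIV MG. miR-183 and miR-126-3p were thus highest in P11 MG and lowest in culture. Other markers of these lists did not all go this way. miR-96 was lower in adult MG and at 14 DIV but was not called at 8 DIV, and miR-182 and miR-126-5p were at background throughout. The photoreceptor list of 3 summed to 828.9 CPM in adult MG, 2415 in P11 MG, 975.8 at 8 DIV and 638.1 at 14 DIV. Whether these miRNAs come from carried-over cells was not tested. miR-709, miR-1196 and miR-335-3p were the only 3 of the 14 that kept this class under all 5 other scalings. miR-709 had 61.0 CPM in adult MG, 475.3 in P11 MG, 117.3 at 8 DIV and 81.9 at 14 DIV, and miR-1196 had 52.2 in adult MG and 267.5 in P11 MG and was below background in both cultures. miR-335-3p, from the imprinted Mest gene, had 58.1 in adult MG, 276.2 in P11 MG and 117.3 at 8 DIV and was below background at 14 DIV. In adult MG all 3 lay close to the limit of 48.7 CPM. None reached 500 CPM in any MG sample, so none was called with that minimum.

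**Figure D3:**
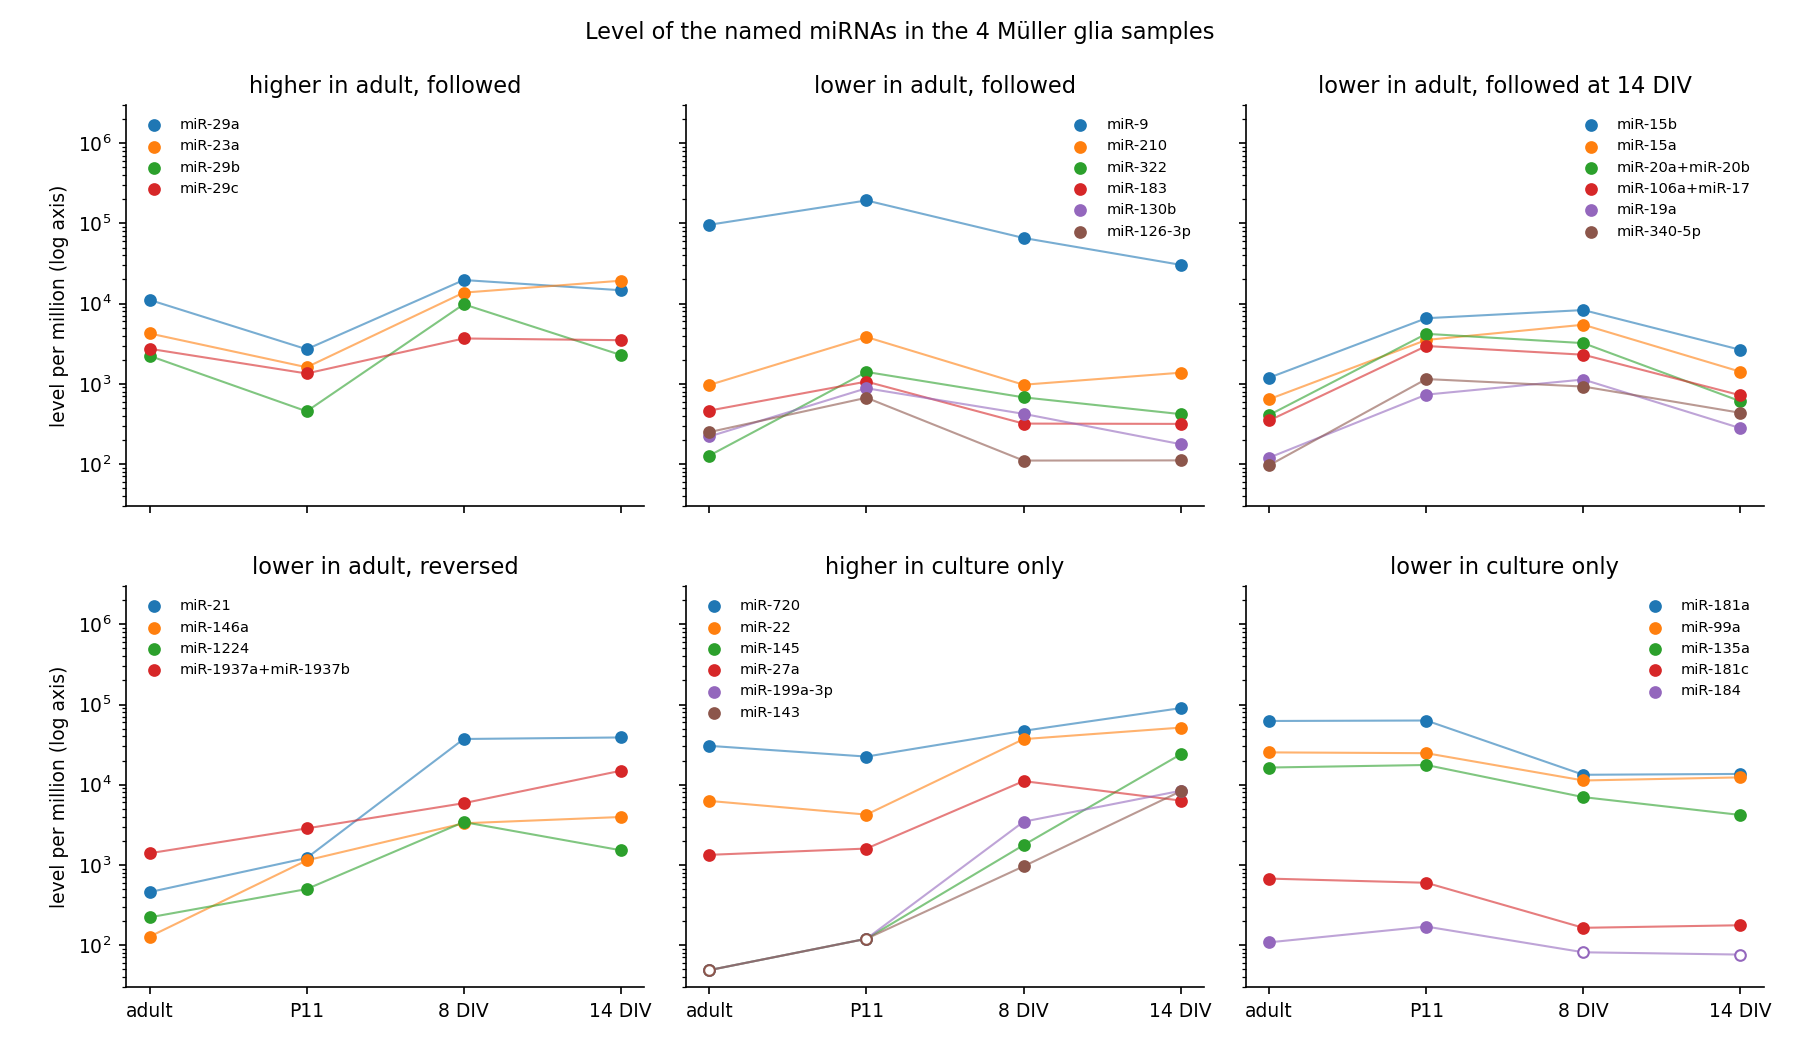
Level in CPM (log axis) of named miRNAs in adult, P11, 8 DIV and 14 DIV MG, 1 pooled sample each, grouped by class; open points lie below background and are drawn at the sample's limit, and lines only join the points of a miRNA. In the upper right panel the miRNAs stay near their P11 level at 8 DIV and are lower at 14 DIV, miR-15b for example at 8313 and 2654 CPM.

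Another group followed maturation at 14 DIV but not at 8 DIV. These 10 miRNAs were lower in adult MG, within 2-fold of P11 MG at 8 DIV and lower at 14 DIV: miR-15a, miR-15b, miR-17/106a, miR-19a, miR-19b, miR-20a/b, miR-93, miR-96, miR-340-5p and miR-467f. Of these, 7 belong to the miR-15/16 and miR-17-92 families, which act on cell cycle genes in opposite directions, miR-15/16 as brakes on cyclins and miR-17-92 as promoters of proliferation. miR-20a/b had 409 CPM in adult MG, 4200 in P11 MG, 3216 at 8 DIV and 605.8 at 14 DIV. miR-15b had 1192 in adult MG, 6576 in P11 MG, 8313 at 8 DIV and 2654 at 14 DIV. In both, P11 and 8 DIV MG were the high pair and adult and 14 DIV MG the low pair.

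In the list of miR-17-92 and its paralog clusters, all 7 measured members were lower in adult MG (median log2 ratio -2.61). None was called at 8 DIV (median -0.17) and 5 were lower at 14 DIV (median -1.39). The other 3 of the 10 on the panel, miR-18a, miR-18b and miR-92a, were at background in the 4 MG samples. Over all measured miRNAs 34.6% were lower in adult MG, 10.9% at 8 DIV and 20.9% at 14 DIV. Summed, the list had 4190 CPM in adult MG, 16540 in P11 MG, 14530 at 8 DIV and 6621 at 14 DIV. Among the 5 measured miR-15/16 miRNAs 4 were lower in adult MG, 1 at 8 DIV (miR-322) and 4 at 14 DIV, beside the same shares over all measured miRNAs. miR-16, the highest in counts, had 9270 in adult MG, 23870 in P11 MG, 23820 at 8 DIV and 13330 at 14 DIV, so it was within 2-fold at both times. miR-15a, miR-17/106a and miR-20a/b are among the exchanged names: by the normalized values miR-15a was higher than P11 MG at 8 and 14 DIV (1.96 and 2.45), miR-17/106a had 0.88 and -1.07, and miR-20a/b had -1.65 and -1.01. Without them, miR-15b, miR-19a, miR-19b, miR-93 and miR-106b had log2 ratios between -0.42 and 0.63 at 8 DIV and between -1.56 and -0.91 at 14 DIV. miR-17 and miR-20a lie 0.5 kb apart on chromosome 14, at chr14:115043684-115043706 and chr14:115044183-115044205 (plus strand), and miR-15b and miR-16 in the span of Smc4 on chromosome 3.

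With equal totals, 4 miRNAs that were lower in adult MG were higher in both cultures. miR-21, which rises in growing and injured cells of many kinds, had 457.7 CPM in adult MG, 1218 in P11 MG, 37180 at 8 DIV and 38850 at 14 DIV. Both cultures were far above both fresh samples, 30.5-fold (interval 27.6 to 33.9) and 31.9-fold (28.8 to 35.4) over P11 MG, and adult MG were 2.66-fold below P11 MG. miR-21a-5p lies at chr11:86584120-86584141 (minus strand), within the span of Vmp1. miR-146a, which NF-kB induces and which limits innate immune signalling, had 127.4 CPM in adult MG, 1138 in P11 MG, 3303 at 8 DIV and 3957 at 14 DIV. Its adult level was 8.93-fold below the P11 level (interval 6.38 to 12.9), and its culture levels were 2.9- and 3.48-fold above it.

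miR-1224, from the span of Vwa5b2, had 221.7 CPM in adult MG, 499.1 in P11 MG, 3420 at 8 DIV and 1522 at 14 DIV. Its adult level was 2.25-fold below the P11 level (interval 1.63 to 3.13). miR-1937a/b, since withdrawn from miRBase as a tRNA fragment, had 1397, 2851, 5883 and 14930 in adult, P11, 8 DIV and 14 DIV MG, and by the exchanged normalized values -0.31 and -1.99 at 8 and 14 DIV. The rise of miR-21 in culture passed 2-fold under each of the 5 other scalings, but its log2 ratio of adult over P11 MG was between -0.70 and -0.24 with the median ratio, positive controls, ligation controls and housekeeping mRNAs. miR-146a was lower in adult MG under all 5, and its rise in culture missed the line with housekeeping mRNAs (log2 0.96 and 0.93). miR-1224 and miR-1937a/b stayed in this class under none of the 5. Another 6 miRNAs lower in adult MG were raised at 1 culture time only. let-7i had the highest counts of them, with 3110 CPM in adult MG, 15390 in P11 MG, 44070 at 8 DIV and 18690 at 14 DIV, and the others were miR-125a-3p, miR-804 and miR-296-5p at 8 DIV and miR-28 and miR-369-3p at 14 DIV.

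No miRNA that was higher in adult MG was 2-fold lower in both cultures, and the nearest was miR-204. It is the leading miRNA of MG and of pigmented epithelium and lies within the span of Trpm3, at chr19:22750610-22750631 (plus strand). It had 364800 CPM in adult MG, 214400 in P11 MG, 117600 at 8 DIV and 103200 at 14 DIV. Adult MG were highest and the cultures lowest, with log2 ratios over P11 MG of 0.77, -0.87 and -1.05. Scaled on housekeeping mRNAs, on the median ratio or on totals without miR-204 itself it passed 2-fold in all 3, and 10, 1 and 1 miRNAs then stood in that class. miR-99a, miR-30c and miR-30d had the same pattern of signs among the 50 miRNAs with the highest levels. The exchanged name miR-30d kept its signs with the normalized values. miR-30c, for example, had 17820 in adult MG, 8063 in P11 MG, 6038 at 8 DIV and 5950 at 14 DIV, with log2 ratios of 1.14, -0.42 and -0.44.

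The class of miRNAs raised in culture only was the largest, with 24 members. Its summed level was 12.4% of all mouse miRNA counts at 8 DIV and 22.4% at 14 DIV, against 4.16% in adult and 3.29% in P11 MG. The class was chosen on these same values, so a higher sum in culture than in P11 MG follows from the choice. Of the 24, 11 were measured in maturation and within 2-fold there, 11 were at background in both fresh samples, and miR-34a and miR-329 were above it in adult MG alone, with no direction. miR-22, a miRNA of cardiac and neural stress responses, had 6276 CPM in adult MG, 4239 in P11 MG, 37030 at 8 DIV and 51510 at 14 DIV. Its cultured levels were 8.74-fold (interval 8.22 to 9.29) and 12.2-fold (interval 11.5 to 12.9) those of P11 MG. Its place in this class depended on the scaling. With the median ratio, positive controls, ligation controls and housekeeping mRNAs the log2 ratio of miR-22 in adult over P11 MG was between 1.27 and 1.74. There it counted as higher in adult MG and followed in culture. miR-720, a tRNA fragment by current annotation, had 30520, 22430, 46990 and 90140 in adult, P11, 8 DIV and 14 DIV MG. It stayed in this class under none of the 5 other scalings. miR-99b, also exchanged, had 861.7, 1692, 4511 and 7374, and log2 ratios of -0.24 and -0.49 in culture by the normalized values.

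Part of this class is made of miRNAs typical of smooth muscle, pericytes and fibroblasts. miR-145 was below background in adult and P11 MG and had 1764 CPM at 8 DIV and 23890 at 14 DIV, at least 14.7- and 199-fold above the P11 limit. In the tdTomato- fraction miR-145 was above background, with 242.1 CPM in adult and 189.9 in P11 retina. miR-143, its cluster partner, had 959.4 and 8275 at 8 and 14 DIV, miR-199a-3p had 3455 and 8396, and miR-199a-5p had 1607 and 5387. These 3 were below background in both fresh MG samples and in both tdTomato- samples. miR-214, which shares the Dnm3os transcript with miR-199a, passed background at 14 DIV alone, with 182. Of the 7 miRNAs in this marker list miR-10a and miR-10b were at background throughout, and the sum of the list was 77.8 CPM in adult MG, 78.5 in P11 MG, 7854 at 8 DIV and 46180 at 14 DIV. Whether MG or other cells of the unsorted cultures held these miRNAs was not tested. Of 9 neuronal markers 3 of 6 measured were higher at 8 DIV and 2 of 5 at 14 DIV, beside 24% and 28.0% over all measured miRNAs. Of these ratios 3 at 8 DIV and 2 at 14 DIV are bounds with P11 MG below background. Such bounds could not have been called lower, so the counts cannot be weighed against those shares. The sum of the neuronal list was 2470 CPM in adult MG, 3642 in P11 MG, 7431 at 8 DIV and 4155 at 14 DIV. miR-124, the best known neuronal miRNA, had 1729, 2531, 2430 and 1838 in adult, P11, 8 DIV and 14 DIV MG, against 307600 and 147600 in the tdTomato- fraction of adult and P11 retina. By the normalized values of this exchanged name its log2 ratios over P11 MG were 1.22 and 2.56, and the sum of the list was 10880 CPM at 8 DIV and 17240 at 14 DIV. The neuronal miR-132 and miR-218 were among the 24. miR-132, induced by neuronal activity and CREB, had 151 in adult MG, 155 in P11 MG, 2010 at 8 DIV and 540 at 14 DIV. The 5 haematopoietic and microglial markers summed to 483.8 CPM in adult MG, 936 in P11 MG, 1173 at 8 DIV and 1165 at 14 DIV. Of them miR-155 was at background throughout, none was called at 8 DIV (median log2 ratio -0.06) and miR-223 was higher at 14 DIV (median 0.01). miR-142-3p had 50.7, 334.6, 647.4 and 442.6 CPM in adult, P11, 8 DIV and 14 DIV MG, miR-142-5p had 276.3, 451.5, 431.6 and 345.2, and miR-150 was above background in fresh MG only. The erythroid markers miR-451, miR-144 and miR-486 were at background in all 4.

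Only 5 miRNAs were lowered in culture alone. They held 3.18% of all counts at 8 DIV and 3.04% at 14 DIV, against 10.5% in adult MG and 10.6% in P11 MG. They were chosen on these same values, so a lower sum in culture than in P11 MG follows from the choice. miR-181a, best known from T cell development, had 62340 CPM in adult MG, 63200 in P11 MG, 13300 at 8 DIV and 13630 at 14 DIV. The fresh samples were 1.01-fold apart, and 8 DIV MG lay 4.75-fold (interval 4.58 to 4.94) and 14 DIV MG 4.64-fold (4.46 to 4.82) below P11 MG. miR-99a had 25300, 24730, 11290 and 12350 in adult, P11, 8 DIV and 14 DIV MG, at 2.00-fold on the line at 14 DIV. miR-135a had 16380 in adult MG, 17620 in P11 MG, 7000 at 8 DIV and 4194 at 14 DIV, so that it went on falling between the culture times. miR-181c and miR-184, at most 674.4 and 170.2 CPM, make up the rest. None of the 5 kept this class under all 5 other scalings. miR-181a and miR-135a stayed more than 2-fold lower in both cultures under each. They left the class with ligation controls, where their log2 ratios of adult over P11 MG were 1.15 and 1.07. miR-99a missed the line in both cultures with positive controls (-0.94 and -0.97).

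Opposite calls within 1 seed family were rare, but most families are small and only 7.05% of measured miRNAs were higher in maturation. Such calls would then be rare whatever the seeds, and no share for unrelated miRNAs was computed. Many families had log2 ratios on both sides of 0. The matched miRNAs form 21 families of 2 or more, with 63 miRNAs in all, and in maturation no family held both a higher and a lower call. In culture 1 family did, at both times. Of the families with at least 2 measured members, 5 of 14 had ratios on both sides of 0 in maturation, 10 of 20 at 8 DIV and 9 of 20 at 14 DIV. In the family with opposite calls miR-99a fell (2.19- and 2.00-fold), miR-99b rose (log2 1.42 and 2.12) and miR-100 had log2 ratios of 0.69 and 0.92, while in maturation miR-99a and miR-100 had 0.03 and 0.73 and miR-99b -0.97. The 3 sequences above hold the same seed and differ after it, but miR-99b is among the exchanged names. In the let-7 list 3 of 9 miRNAs were lower in adult MG (let-7i, let-7f and miR-98), a share near the 34.6% over all measured miRNAs, all 9 log2 ratios of adult over P11 MG were negative with a median of -0.90, and the medians were 0.33 at 8 DIV and 0.17 at 14 DIV. These directions flipped with the scaling: the adult median was above 0 with housekeeping mRNAs and ligation controls, both culture medians were below 0 with housekeeping mRNAs, and the 14 DIV median was also below 0 without miR-204. The let-7 miRNAs, which oppose proliferation and rise as most tissues differentiate, summed to 114900 CPM in adult MG, 211900 in P11 MG, 270600 at 8 DIV and 212100 at 14 DIV.

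The miR-181 list was lowered in culture throughout, with 3 of 3 members called at both times. Over all measured miRNAs 10.9% were lower at 8 DIV and 20.9% at 14 DIV. In this list only miR-181b/d fell in maturation with equal totals (log2 -1.85, against -0.02 for miR-181a and 0.17 for miR-181c). The miR-30 list had a median log2 ratio of 0.78 in adult MG and of -0.18 and -0.44 at 8 and 14 DIV, of which that at 8 DIV was above 0 with positive controls, although miR-30a had 0.78 at 8 DIV and was higher in adult and 14 DIV MG. miRNAs of the imprinted Dlk1-Dio3 locus on chromosome 12, which mark the developing nervous system and mesenchyme, were above background most often at 14 DIV. Of the 41 on the panel 18 were at background in all 4 MG samples. Of the other 23, 11 were above background in adult MG, 9 in P11 MG, 13 at 8 DIV and 23 at 14 DIV. Over all miRNAs 171, 149, 186 and 182 were above background in these samples. The limit was 119.9 CPM in P11 MG and 76.1 CPM at 14 DIV. Of the 18 locus miRNAs measured over P11 MG, 10 were higher at 14 DIV, beside 28.0% over all measured miRNAs. Of these 18 ratios 9 are bounds with P11 MG below background, which could not have been called lower. Over all 182 ratios 53 are bounds, so the 10 of 18 cannot be weighed against the 28.0%. miR-382 had 305.8 in adult MG, 377.9 in P11 MG, 424.6 at 8 DIV and 1340 at 14 DIV, and miR-127 had 105.2, 165.8, 185.3 and 979.7.

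**Figure D4:**
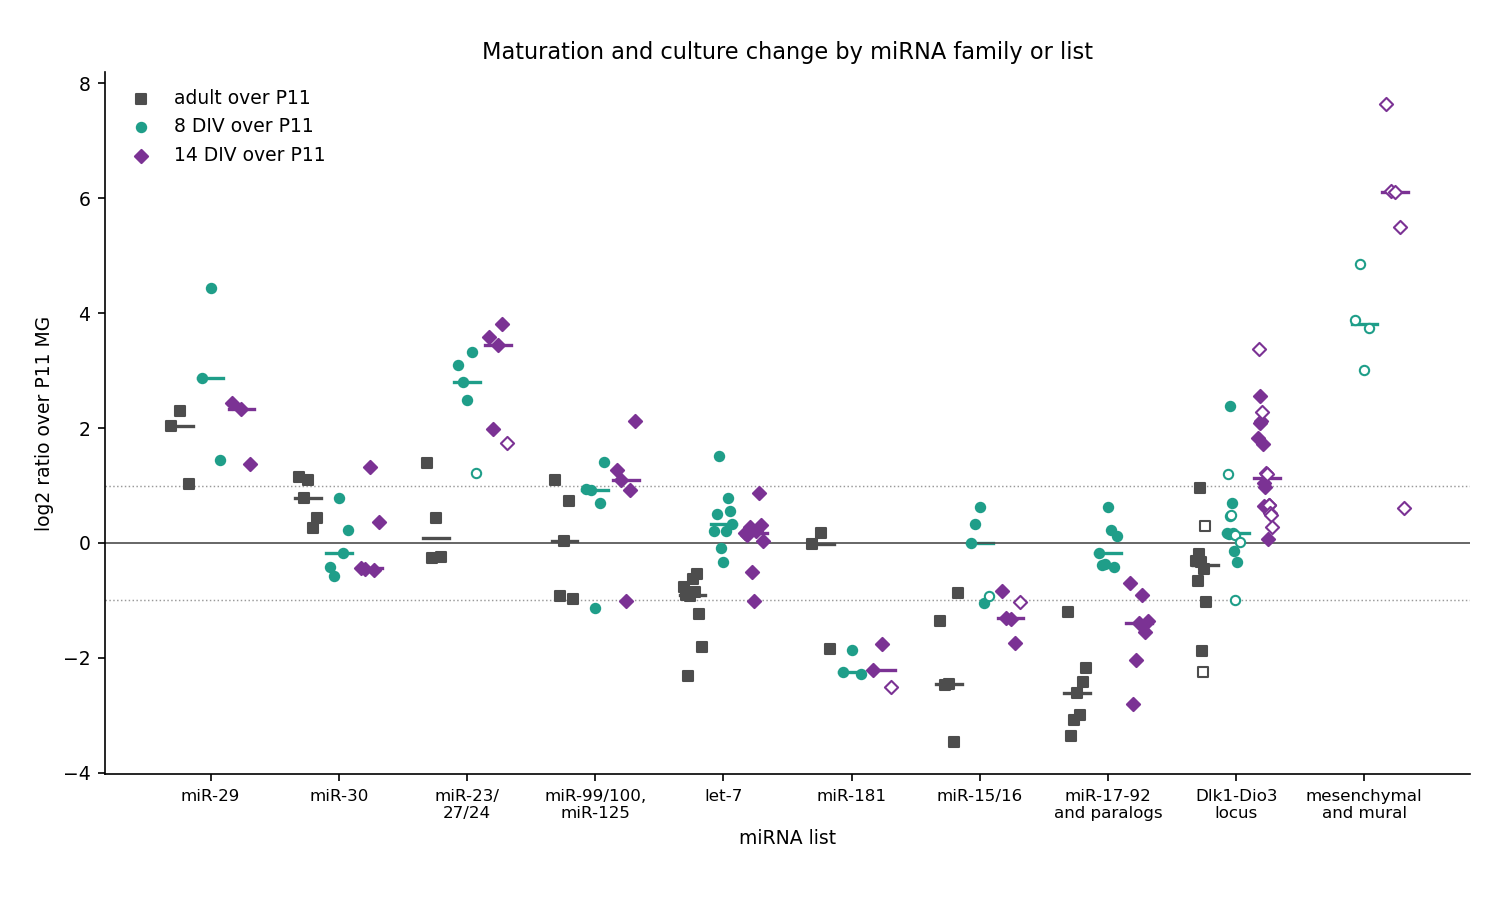
Log2 ratio over P11 MG (vertical axis) of each member of 10 miRNA lists in adult MG (squares), 8 DIV MG (circles) and 14 DIV MG (diamonds); bars are medians and open symbols bounds. The miR-29 list lies above zero in all 3, miR-17-92 lies below zero in adult and 14 DIV MG and near it at 8 DIV, and the mesenchymal list has no value in adult MG because its members were at background there.

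A pair of comparisons shares no sample with adult over P11 MG and was set beside it, although the neurons were sorted from the same pooled retinas as the fresh MG. Between the culture times, 23 of 206 miRNAs were 2-fold higher at 14 than at 8 DIV (11.2%) and 30 lower (14.6%). Of the miRNAs lower in adult MG 48 could be compared there, and 15 of them were lower at 14 DIV (31.2%) and 1 higher. The median log2 ratio of 14 over 8 DIV MG was -0.56 for the miRNAs lower in adult MG, 0.12 for those within 2-fold and -0.02 for the 11 higher ones. Over 145 miRNAs the 2 log2 ratios had Pearson's r = 0.33 and Spearman's rho = 0.35, a description across miRNAs of single samples, which share the panel and the totals. In neurons 15 of 129 miRNAs were higher in adult than in P11 neurons (11.6%) and 31 lower (24%).

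Of the miRNAs lower in adult MG 38 could be compared in neurons, and 17 of them were lower in adult neurons (44.7%) and 3 higher. Over 115 miRNAs r was 0.53 and rho 0.44, between fractions that share retinas, dissociation and sort as well as the panel and the totals. The miR-29 list was higher in adult neurons too (3 of 3), and 7 of 7 in the miR-17-92 list were lower. Over all miRNAs measured in neurons 11.6% were higher and 24% lower. Of the reversed miRNAs, miR-1224 was higher in adult neurons (2824 CPM, against 1279 in P11 neurons), and miR-21 had 1457 CPM in adult and 836 in P11 neurons, within 2-fold.

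**Figure D5:**
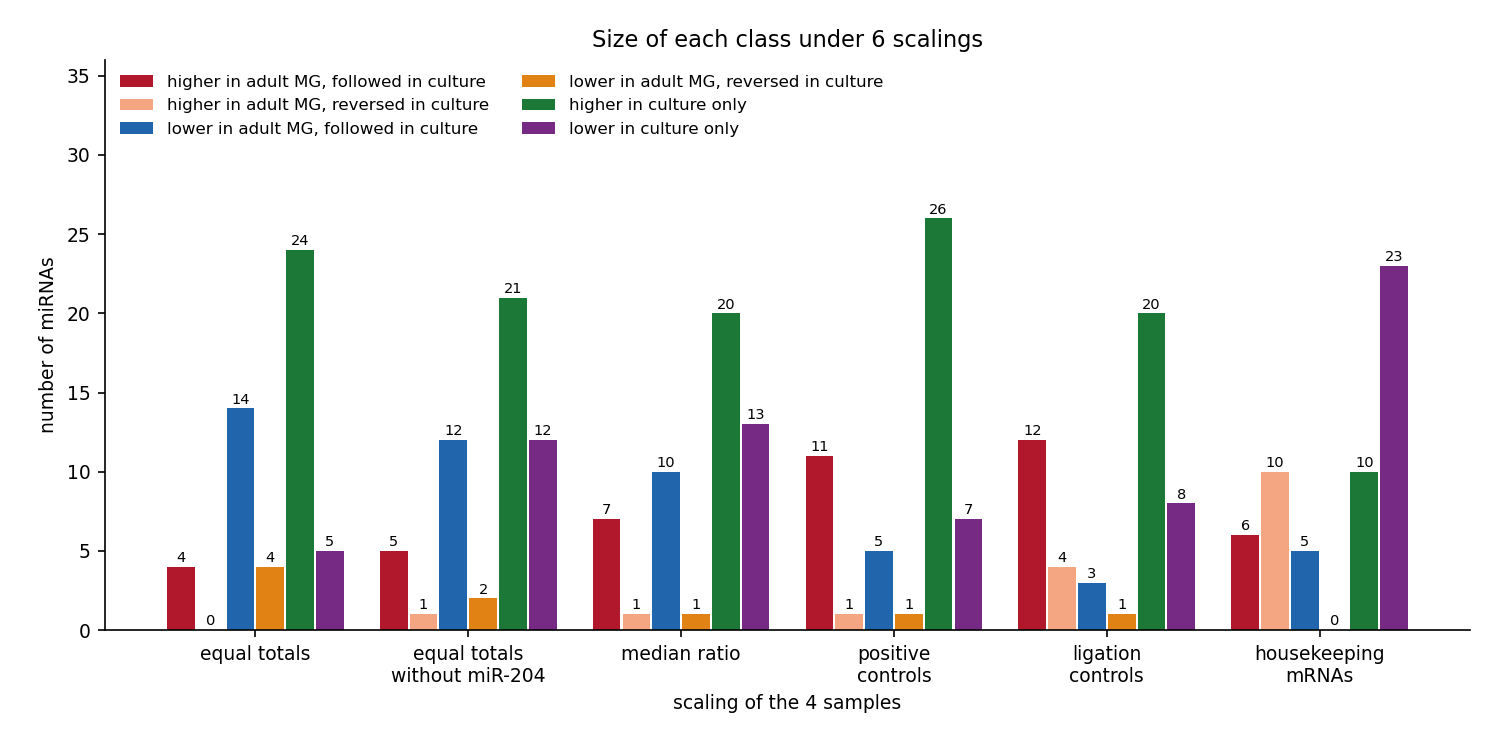
Number of miRNAs (vertical axis) in each of the 6 classes under equal totals and 5 other scalings of the 4 samples. The lower-and-followed class shrinks from 14 to between 3 and 12, the higher-and-followed class grows from 4 to between 5 and 12, and 23 miRNAs are lower in culture only with housekeeping mRNAs against 5 with equal totals.

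The classes differed in how much they depended on the scaling. Of the 4 miRNAs higher in adult MG and followed, miR-23a, miR-29a and miR-29b stayed so under all 5 other scalings. With the normalized values the exchanged names miR-23a and miR-29a left the class. Of the 24 raised in culture only 9 stayed: miR-24, miR-27a, miR-34a, miR-34b-5p, miR-143, miR-145, miR-199a-3p, miR-199a-5p and miR-221. Of the 14 lower and followed 3 stayed, and none of the 4 reversed, although miR-146a left that class with housekeeping mRNAs only. The count of 54 miRNAs lower in adult MG was between 17 and 39 under the other scalings. In each, 12 to 24 of them were lower at 14 DIV, against at most 2 that were higher. Over all measured miRNAs between 35 of 182 (positive controls) and 73 of 170 (housekeeping mRNAs) were lower at 14 DIV. Between 27 (housekeeping mRNAs) and 53 (positive controls) were higher. Both calls share the P11 sample under every scaling, so they are not independent.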

How the data were processed

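miRNAs were measured with the nCounter mouse miRNA panel. The authors deposited raw counts per feature for 6 pooled samples, 4 of MG and 2 of the tdTomato- fraction. They also deposited a table of normalized values, made with nSolver by scaling on housekeeping genes, whose scores were used only as an alternative. Another 4 of its columns were not used. The genome build of the panel is not given in the sources used here.

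The mean of the 8 negative controls was subtracted from each raw count, values below 0 were set to 0, and each sample was scaled to a sum of 1000000 over the 566 mouse features (CPM). Having 1 sample per group allowed no test, so miRNAs were called at 2-fold. The steps were tested on simulated data in which the highest miRNAs were unaltered and totals were equal. The simulation could therefore not test the choice of scaling. Members and lists were chosen with earlier results of these data known.

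Named were, in each class, the 5 miRNAs of highest level and the 3 of largest log2 ratio at 14 DIV, the 10 highest of all, and 2 to 4 of each list. The other names, such as miR-1196, miR-335-3p, miR-709, miR-365, miR-99b, miR-34a, miR-19b, miR-93, miR-98, miR-106b and miR-214, were chosen after their values were seen. Alternatives were 5 scalings, calls at 1.5- and 3-fold, a limit of 3 SD, no subtraction, a minimum of 500 CPM, a counting interval without 1, and the normalized values. A limit at the highest viral feature, and list sums with the normalized values of exchanged names, were added after seeing the data. Analysis ran in Python 3.11.15 with scipy 1.17.1 for intervals, pandas 2.3.3 and numpy 2.4.6 for tables, and matplotlib 3.10.9 for plots.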

Additional observations from a re-analysis of the deposited data

Results flagged for a closer look

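The panel carries 33 features for viral miRNAs, which belong to no comparison and for which mouse retina should give background only. In adult MG 2 of them passed the background limit of 71.66 raw counts, mcmv-miR-m59-2 with 79 and mghv-miR-M1-7-5p with 91 raw counts, which is 6.06% of these features. In the P11 neuron sample mcmv-miR-m01-2 had 88 raw counts, over a limit of 87.02. None passed it in P11, 8 DIV or 14 DIV MG. Mouse miRNAs close to the limit, such as miR-1196 in adult MG, stand at a similar level.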

How the results depend on the processing

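Under the alternatives 80 recomputed counts stayed within 1.5 times of the first value and 37 moved further. miRNAs called in adult over P11 MG numbered 65, and 105 at 1.5-fold, 32 at 3-fold and 42 with at least 500 CPM. At 8 DIV 64 were called, 34 at 3-fold, and at 14 DIV 89, 52 at 3-fold. The 4 miRNAs higher in adult MG and followed became 11 with positive controls, 12 with ligation controls, 7 with the median ratio, 10 at 1.5-fold, 2 at 3-fold and 2 with the deposited values. Higher and reversed numbered 0, and 10 with housekeeping mRNAs, 1 with positive controls, 4 with ligation controls, 1 with the median ratio, 1 without miR-204 and 2 at 1.5-fold. The 14 lower and followed became 5 with housekeeping mRNAs or positive controls, 3 with ligation controls or at 3-fold, and 7 without subtraction or with at least 500 CPM. The 4 lower and reversed became 0 with housekeeping mRNAs or at 3-fold, 1 with positive controls, ligation controls or the median ratio, 2 without miR-204 and 13 at 1.5-fold. The 24 higher in culture only became 10 with housekeeping mRNAs, and the 5 lower in culture only became 23 with housekeeping mRNAs, 8 with ligation controls or at 1.5-fold, 13 with the median ratio, 12 without miR-204 and 13 with the viral limit, chosen after seeing the data. The cause was not tested.

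Log2 ratios that turned were, for adult over P11 MG with ligation controls, miR-9 0.17, miR-2141 0.13, miR-1937a/b 0.15 and miR-1224 0.0. With the deposited normalized values, miR-29a turned at 14 DIV (-0.64), miR-23a at 8 DIV (-0.05), miR-210 at 8 and 14 DIV (2.36 and 1.94), miR-1937a/b at 8 and 14 DIV (-0.31 and -1.99) and miR-15a at 14 DIV (2.45). Requiring a counting interval without 1 changed no count. No paired analysis was possible because each condition has 1 pooled sample. Below the limit of 48.7 to 119.9 CPM, differences were not detectable.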
